A study of Mus musculus with 28 samples.

Results

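The genes described here make leukotrienes and prostaglandins from arachidonic acid. The set has 8 members, Pla2g4a, Ptgs1, Ptgs2, Ptges, Alox5, Alox5ap, Lta4h and Ltc4s, which were found by exact symbol among the 55450 rows of the deposited expression table. Each member had a row in that table. The RNA came from the C10 line, mouse Pre-B cells derived from HAFTL that carry a CEBPalpha-ER transgene, a fusion of rat C/EBPα with the hormone-binding part of the estrogen receptor, in all samples. The groups were uninduced cells (0h) and cells collected 1h, 12h and 48h after 100 nM β-estradiol, 10 nM IL-3 and CSF-1 were added, with 3 biological replicates each, which gives 12 libraries. The 3 additions were made together, so their effects cannot be told apart. Promoter Capture Hi-C (PCHi-C), which lists the DNA fragments in contact with captured promoter fragments (baits), came from the same line and the same 4 time points as 1 list per time point, made from 2 merged replicates. One cell line is the source of every sample.

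Arachidonic acid is released from membrane phospholipids by cytosolic phospholipase A2, the product of Pla2g4a. The cyclooxygenases encoded by Ptgs1 and Ptgs2 turn it into prostaglandin H, from which the Ptges product makes prostaglandin E. In the other branch, 5-lipoxygenase (Alox5), with the help of its membrane partner FLAP (Alox5ap), makes the unstable leukotriene A, which the Lta4h product hydrolyses to leukotriene B and the Ltc4s product joins to glutathione. Macrophages are well known producers of both kinds of mediator, and Ptgs2 is a classic inducible gene in these cells.

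Expression values were TPM, the abundance of a transcript per unit length relative to all others in its library, so levels of different genes can be set side by side. A pair of overlapping genes at a ribosomal RNA locus took between 70.3% and 82.9% of the TPM of a library, and TPM keep no record of depth. All 16 housekeeping genes examined were above 0 in all 12 libraries. Genes whose TPM averaged 0.1 or more over the libraries, 16415 in all, were compared by limma on log2(TPM + 0.1), and a gene was called when its Benjamini-Hochberg adjusted p was under 0.05. Over these genes the median log2 change against 0h was 0.59 at 1h, then 0.34 at 12h and finally -0.18 at 48h. After median-of-ratios scaling, which divides each library by its median ratio to the average library, the same medians were 0.021, 0.069 and 0.072. Calls of members that this scaling changed are given with both values. For the other named genes such changes are given in part, so a call without a second value need not have held. The labels do not say that replicates were separate cultures, so p-values measure the spread between these libraries. The 3 comparisons against 0h share the 0h libraries.

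The labelled cell types were checked by their markers. The summed TPM of 10 Pre-B cell markers was 266 to 287 in the 0h libraries against 29.5 to 41.7 in those of 48h, and Rag1 was listed at 0 in all 48h libraries. That of 10 macrophage markers was 12.5 to 13.1 at 0h, 35.6 to 43.3 at 1h, 460 to 587 at 12h and 1010 to 1186 at 48h. The macrophage markers Adgre1, Cd14 and Msr1 were listed at 0 at 0h, and all 10 were above 0 in at least 1 library at 12h and at 48h. Of the 10, 7 averaged at least 1 TPM at 12h and 9 at 48h. Adgre1 stayed near 0, with means of 0.013 TPM at 12h and 0.097 at 48h. In these bulk samples, more cells of a type and more RNA per cell cannot be told apart. Of the other cells known to make leukotrienes or prostaglandins, mast cells and basophils were represented by 8 markers, all at 0 in all libraries. Of 9 neutrophil and granule markers, 2 were above 0 in any library at 0h, 3 at 1h and 4 each at 12h and 48h. Their sum was 0 to 0.54 TPM at 0h, 0.22 to 0.64 at 1h, 9.64 to 17.0 at 12h and 1.77 to 4.62 at 48h, with Mpo, Retnlg and S100a9 at 0 in every library. Mean TPM at 0h, 12h and 48h was 0.06, 8.69 and 0.36 for Camp, and 0.19, 2.36 and 0.77 for Prtn3. For S100a8 it was 0, 1.78 and 1.96. Elane, Ly6g and Ltf averaged at most 0.1 TPM at any time point. The sum of 4 megakaryocyte and platelet markers was at most 1.51 TPM, with Pf4 and Ppbp at 0 throughout. The sums of the eosinophil markers (4) and of the T and NK cell markers (5) were at most 0.31 and 0.33 TPM. Those of 5 fibroblast and endothelium markers lay between 4.68 and 7.78 TPM, with both collagen genes at 0. Nearly all of this was Pecam1, with time point means from 5.39 to 6.45 TPM. Cdh5 and Pdgfrb averaged at most 0.27 and 0.29 TPM at any time point. The part of these cells in the results was not tested.

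Of the 8 members, 5 passed the filter on low values (Pla2g4a, Ptgs1, Ptgs2, Alox5ap and Lta4h). Alox5, Ptges and Ltc4s did not, and are described by their values alone. Ptgs2 averaged 0.017 TPM at 0h, under the filter of 0.1, and passed it through its induced libraries. A rise of Ptgs2 against 0h at some time point was therefore set by the filter. The counts of members higher than at 0h include Ptgs2. At 1h 2 of the 5 were called higher, against 24.1% of all genes tested, and 1 lower, against 1.41%. At 12h 3 were higher, against 22.3%, and 0 lower by limma, against 7.82%, with 1 lower (Ptgs1) at an unadjusted p under 0.05. At 48h 3 were higher, against 15.9%, and 1 lower, against 27.2%. From 1h to 12h 2 were higher (6.98% of all genes) and 0 lower by limma (15.0%), at an unadjusted p under 0.05 too. From 12h to 48h 1 was higher (4.10%) and 1 lower (31.7%). After median-of-ratios scaling 1 was higher and 2 were lower at 1h, against 5.42% and 4.92% of all genes. With that scaling 3 were higher and 1 lower at 12h (16.0% and 14.5%), and also at 48h (24.5% and 22.0%). From 1h to 12h the scaled counts of members were the same as before (11.3% and 8.77% of all genes), and from 12h to 48h 3 were higher and 1 lower (10.5% and 11.9%). Over the 5 members the median log2 change came to 0.54 (1h), 1.26 (12h) and 1.01 (48h), and after that scaling to -0.11, 0.93 and 1.41, beside the medians over all genes given above. The direction of the 1h median thus turned with the scaling.

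**Figure D1:**
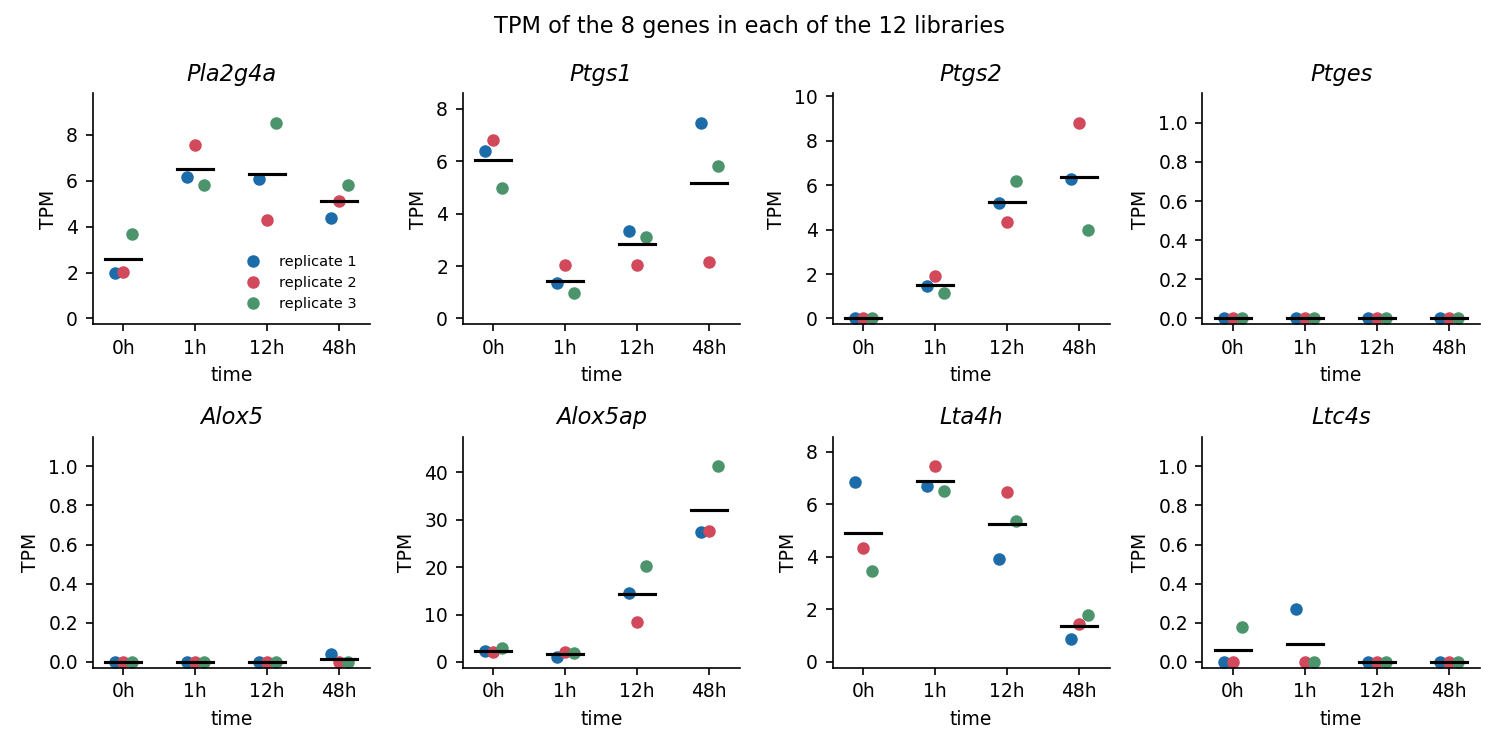
TPM (vertical axis, linear, a separate scale per gene) of each gene at 0h, 1h, 12h and 48h. Points are single libraries coloured by replicate number and bars are means of 3. Alox5ap reached 41.26 TPM at 48h, while Ptges lay at 0 in every library.

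Pla2g4a (ENSMUSG00000056220) lies on chromosome 1 from 149829618 to 149961290 on the minus strand (GRCm38, as for all positions here). Its product is the enzyme that frees arachidonic acid. Its TPM in replicates 1, 2 and 3 was 2.00, 2.04 and 3.70 at 0h, 6.16, 7.55 and 5.82 at 1h, 6.10, 4.28 and 8.53 at 12h, and 4.37, 5.13 and 5.83 at 48h. All libraries of the induced time points lay above all 0h libraries, and those of 1h, 12h and 48h overlapped each other. After median-of-ratios scaling 0h replicate 3 (4.41) overlapped the libraries of 1h (3.95 to 4.94) and 12h (3.85 to 6.30), and those of 48h (6.96 to 7.76) stood above all others. The mean was 2.52 times that of 0h at 1h and 1.98 times at 48h. The log2 change against 0h was 1.35 ± 0.29 (SE, adjusted p = 0.00683, limma) at 1h, 1.26 ± 0.29 (adjusted p = 0.00668, limma) at 12h and 1.01 ± 0.29 (adjusted p = 0.0140, limma) at 48h. The 1h call was lost after median-of-ratios scaling, with 0.70 (adjusted p = 0.144, limma), and the 12h and 48h changes were called with 0.93 and 1.41. The 12h call was lost with only the 6 libraries compared in the fit (adjusted p = 0.0537, limma). Without 0h replicate 1 or 0h replicate 2 the 48h change was 0.86 or 0.87 and no longer called (adjusted p = 0.0556 and 0.0566, limma).

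Ptgs1 (ENSMUSG00000047250; chromosome 2, 36230426 to 36252272, plus strand) encodes the cyclooxygenase that many cells carry without a stimulus. It was the member with the highest mean at 0h, where its TPM was 6.39, 6.82 and 4.98. At 1h it was 1.34, 2.03 and 0.96, at 12h 3.33, 2.06 and 3.11, and at 48h 7.47, 2.17 and 5.84. All 1h libraries were thus below all 0h libraries, the 12h libraries lay between them, and the 48h libraries were spread from the 12h level to above the 0h level. Ptgs1 fell by 2.04 ± 0.41 on the log2 scale at 1h (SE, adjusted p = 0.00536, limma), while the median of all genes was 0.59 higher. The mean at 0h was 4.20 times that at 1h. At 12h the difference from 0h was -1.09 (adjusted p = 0.0690, limma) and passed the threshold after median-of-ratios scaling, with -1.41 (adjusted p = 0.0247, limma). At 48h it was -0.39 ± 0.41 (adjusted p = 0.491, limma) and 0.017 after that scaling. From 12h to 48h the change was 0.70 (adjusted p = 0.218, limma), and 1.43 (adjusted p = 0.0300, limma) after that scaling. Of the 48h libraries replicate 2 was the lowest. Without it the 12h change against 0h (adjusted p = 0.0176), the 12h change against 1h of 0.96 (adjusted p = 0.0390) and the 48h change against 12h of 1.22 (adjusted p = 0.0161) passed the limma threshold, and the 48h difference from 0h was 0.13.

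Ptgs2 (ENSMUSG00000032487; chromosome 1, 150100031 to 150108227, plus strand) encodes the inducible cyclooxygenase. Its TPM was 0, 0.03 and 0.02 at 0h, 1.45, 1.91 and 1.14 at 1h, 5.21, 4.35 and 6.18 at 12h, and 6.27, 8.80 and 3.98 at 48h. Every 1h library was above every 0h library, every 12h library was above every 1h library, and the 48h libraries spread to both sides of the 12h libraries. Ptgs2 rose by 3.76 ± 0.30 on the log2(TPM + 0.1) scale at 1h (SE, adjusted p = 1.71e-05, limma), 5.51 ± 0.30 at 12h (adjusted p = 2.63e-07, limma) and 5.73 ± 0.30 at 48h (adjusted p = 5.78e-08, limma). Since the 0h level is near 0, these sizes depend on the value added: at 1h the change was 1.29 with a pseudocount of 1 and 6.01 with 0.01, called in both. From 1h to 12h Ptgs2 rose by a further 1.75 ± 0.30 (adjusted p = 0.00180, limma). From 12h to 48h the difference was 0.21 (adjusted p = 0.627, limma), became 0.95 (adjusted p = 0.0378, limma) after median-of-ratios scaling, and was -0.054 without 48h replicate 2. Of 22 alternatives, that scaling alone called the step from 12h to 48h, and with it the 48h libraries lay above those of 12h.

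The 250 bases before the start of both cyclooxygenase genes are shown because these genes moved in opposite directions at 1h. They are from RefSeq (GRCm38.p6), 5′ to 3′ on the strand of the gene, at chr1:150099781-150100030 for Ptgs2 and chr2:36230176-36230425 for Ptgs1. Capitals mark the C/EBP palindrome TTGCGCAA and the letters GAGGAAGT, a form of the box recognised by the transcription factor PU.1. Both motifs, and the looser C/EBP form TTGCNNAA, which overlaps the palindrome, were chosen after the sequences had been seen and were searched on both strands.
Ptgs2: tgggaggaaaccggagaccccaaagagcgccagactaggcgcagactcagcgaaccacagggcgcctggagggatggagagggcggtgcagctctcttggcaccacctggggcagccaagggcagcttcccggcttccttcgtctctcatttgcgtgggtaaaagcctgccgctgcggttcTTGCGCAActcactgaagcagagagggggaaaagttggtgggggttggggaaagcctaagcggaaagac
Ptgs1: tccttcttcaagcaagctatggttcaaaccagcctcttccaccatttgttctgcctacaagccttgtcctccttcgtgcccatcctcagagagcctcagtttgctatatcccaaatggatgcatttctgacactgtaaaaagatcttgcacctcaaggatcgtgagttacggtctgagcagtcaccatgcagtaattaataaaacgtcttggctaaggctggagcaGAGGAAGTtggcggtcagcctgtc
The Ptgs2 window holds the palindrome once, its first base 69 bases before the start, and was 61.6% G and C. The Ptgs1 window holds no C/EBP match, has GAGGAAGT with its first base 24 bases before the start, and was 48.0% G and C. Among 32817 windows of the same length, 0.165% held TTGCGCAA, 9.57% held TTGCNNAA and 2.44% held GAGGAAGT. The table had 8 windows for 7 of the 8 members, all except Alox5ap, and none of these motifs matched in the other 6 windows. A match describes the letters and does not show binding.

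As both genes are measured in each library, their ratio is not changed by dividing a library by 1 factor. Ptgs2 made up 0%, 0.438% and 0.400% of the summed TPM of Ptgs1 and Ptgs2 at 0h. At 1h its share was 52.0%, 48.5% and 54.3%, at 12h 61.0%, 67.9% and 66.5%, and at 48h 45.6%, 80.2% and 40.5%. The shares of 0h, 1h and 12h did not overlap, while those of 48h reached below and above the 12h shares. The sum itself was 5 to 6.85 TPM at 0h, 2.1 to 3.94 at 1h, 6.41 to 9.29 at 12h and 9.82 to 13.7 at 48h, so at 1h both cyclooxygenases together were below the uninduced level in TPM.

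**Figure D2:**
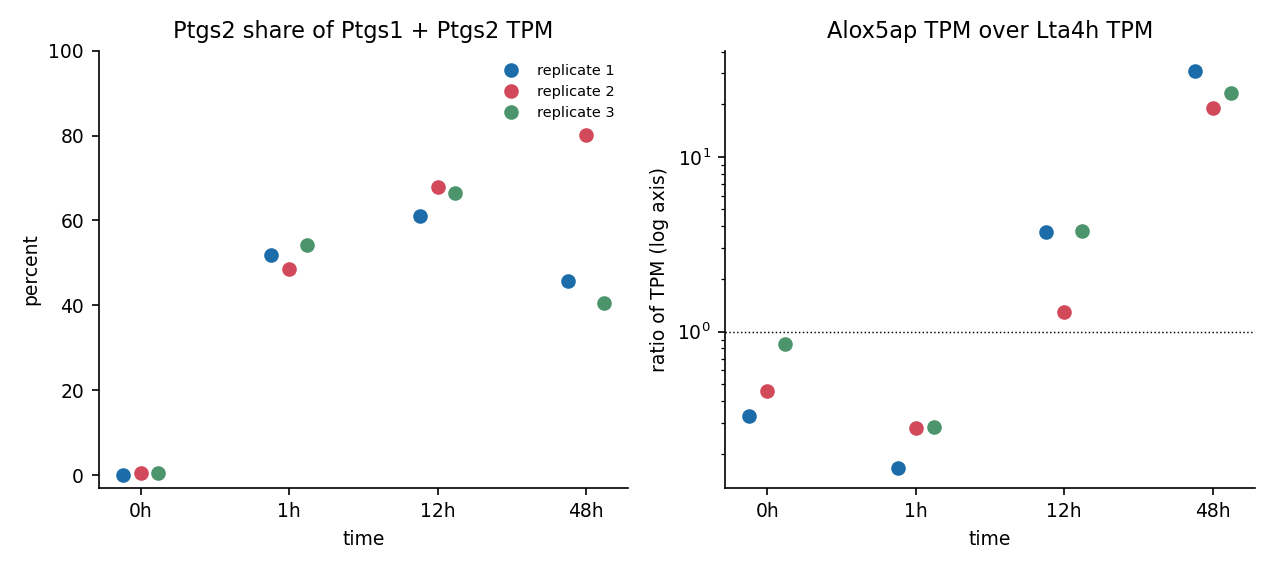
Left, Ptgs2 as a percent of the summed TPM of Ptgs1 and Ptgs2; right, the TPM of Alox5ap divided by that of Lta4h on a log axis. Each point is 1 library. The share went from at most 0.438% at 0h to at least 48.5% at 1h, and the ratio was above 19 in all 48h libraries.

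Ptges (ENSMUSG00000050737; chromosome 2, 30889471 to 30929863, minus strand), the inducible synthase of prostaglandin E, was listed at 0 in all 12 libraries. The other prostaglandin E synthases of the pathway list were present. Ptges3, which also serves as a co-chaperone, was at 17.5 to 20.5 TPM at 0h and 3.34 to 4.42 at 48h. Ptges2 was at 1.01 to 1.48 TPM at 0h and 0.37 to 0.67 at 48h. Ptges3 fell by 2.26 ± 0.19 on the log2 scale at 48h (SE, adjusted p = 2.43e-06, limma). The change of Ptges2 at 48h was -1.27 (adjusted p = 0.0170, limma), and its call was lost after median-of-ratios scaling, with -0.94 (adjusted p = 0.0547, limma), and without 0h replicate 2, 0h replicate 3, 48h replicate 1 or 48h replicate 2 (adjusted p = 0.0510, 0.0607, 0.0601 and 0.0568, limma).

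Alox5 (ENSMUSG00000025701; chromosome 6, 116410077 to 116461178, minus strand), the enzyme that starts leukotriene synthesis, was listed at 0 in 11 libraries and at 0.04 TPM in 48h replicate 1. Ltc4s (ENSMUSG00000020377; chromosome 11, 50236461 to 50238616, minus strand), the synthase of the cysteinyl leukotrienes, was at 0, 0 and 0.18 TPM at 0h, at 0.27, 0 and 0 at 1h, and at 0 in all libraries of 12h and 48h. TPM do not give the number of reads behind an estimate, so an estimate of 0 does not show that a transcript was absent.

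Alox5ap (ENSMUSG00000060063; chromosome 5, 149264767 to 149288153, plus strand) encodes FLAP, which presents arachidonic acid to 5-lipoxygenase. Its TPM was 2.26, 2.00 and 2.95 at 0h, 1.11, 2.1 and 1.85 at 1h, 14.55, 8.33 and 20.34 at 12h, and 27.40, 27.57 and 41.26 at 48h. The 0h and 1h libraries overlapped, all 12h libraries lay above both, and all 48h libraries lay above all 12h libraries. The mean was 5.99 times that of 0h at 12h and 13.3 times at 48h, where Alox5ap had the highest level of the 8 members. It rose by 2.46 ± 0.33 on the log2 scale at 12h (SE, adjusted p = 2.31e-04, limma) and by 3.67 ± 0.33 at 48h (adjusted p = 4.03e-06, limma). From 1h to 12h it rose by 2.98 ± 0.33 (adjusted p = 1.07e-04, limma). From 12h to 48h it rose by 1.21 ± 0.33 (adjusted p = 0.0147, limma). That last call was lost without 12h replicate 2, with 0.87 (adjusted p = 0.0595, limma), and without 48h replicate 3, with 1.02 (adjusted p = 0.0544, limma), and with only the 6 libraries compared (adjusted p = 0.0635, limma). At 1h the difference from 0h was -0.51 (adjusted p = 0.276, limma) and -1.13 (adjusted p = 0.0473, limma) after median-of-ratios scaling, with which all 1h libraries lay below those of 0h. The gene overlaps Gm19719 and n-R5s180 on the opposite strand, and a stranded count is not stated in the sources used here.

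Lta4h (ENSMUSG00000015889; chromosome 10, 93453411 to 93484875, plus strand) encodes leukotriene A hydrolase, an enzyme found in many cell types. Its TPM was 6.85, 4.35 and 3.48 at 0h, 6.70, 7.45 and 6.51 at 1h, 3.93, 6.46 and 5.38 at 12h, and 0.88, 1.45 and 1.79 at 48h. The 48h libraries were below all others, and those of 0h overlapped both 1h and 12h. It fell by 1.76 ± 0.30 on the log2 scale at 48h against 0h (SE, adjusted p = 5.49e-04, limma) and by 1.89 ± 0.30 against 12h (adjusted p = 5.87e-04, limma). The mean at 0h was 3.56 times that at 48h. After median-of-ratios scaling these changes were -1.38 (adjusted p = 7.39e-04, limma) and -1.18 (adjusted p = 0.00514, limma). The differences at 1h, 0.54 (adjusted p = 0.207, limma), and at 12h, 0.13 (adjusted p = 0.793, limma), did not pass and turned to -0.11 and -0.20 after that scaling. Lta4h was the only member called lower at 48h under both scalings.

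The ratio of Alox5ap to Lta4h TPM, which dividing a library by 1 factor does not change, was 0.330, 0.460 and 0.848 at 0h, 0.166, 0.282 and 0.284 at 1h, 3.70, 1.29 and 3.78 at 12h, and 31.1, 19.0 and 23.1 at 48h. In each library of 0h and 1h Lta4h was the higher of the pair, and in each library of 12h and 48h Alox5ap was.

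**Figure D3:**
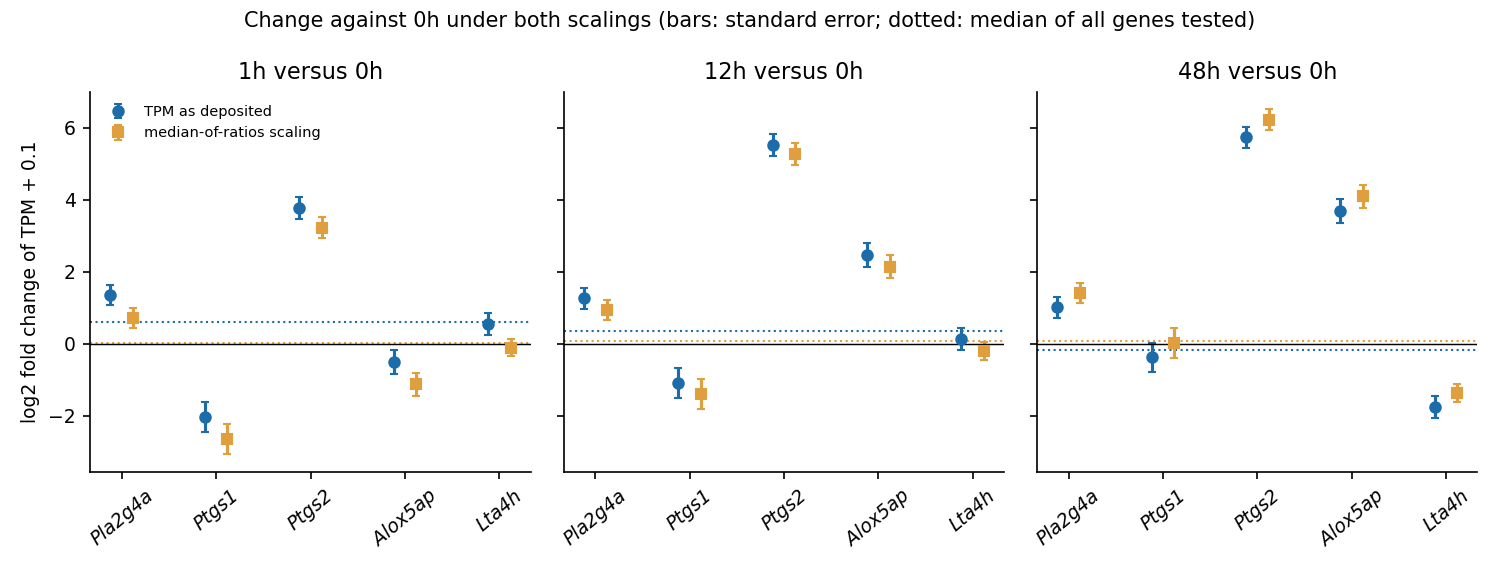
Log2 change of TPM + 0.1 against 0h at 1h, 12h and 48h for the 5 members tested, with TPM as deposited (circles) and after median-of-ratios scaling (squares); bars are standard errors and dotted lines the medians of all genes tested. Ptgs2 was highest in each panel, Ptgs1 lowest at 1h (-2.04) and Lta4h lowest at 48h (-1.76).

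By mean TPM the order at 0h was Ptgs1 (6.06), Lta4h (4.89), Pla2g4a (2.58), Alox5ap (2.40), Ltc4s (0.060) and Ptgs2 (0.017), with Ptges and Alox5 at 0. The libraries of Ptgs1 and Lta4h overlapped, as did those of Pla2g4a with Alox5ap and with Lta4h. At 48h the order was Alox5ap (32.1), Ptgs2 (6.35), Ptgs1 (5.16), Pla2g4a (5.11) and Lta4h (1.37), and the libraries of Ptgs2, Ptgs1 and Pla2g4a overlapped. Alox5ap stood above them, its lowest library at 27.40 TPM against 8.80 for the highest of the rest. All Lta4h libraries lay below them, the highest at 1.79 TPM against 2.17 for the lowest of Ptgs1.

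The genes most like each member were those with the highest Pearson correlation of log2(TPM + 0.1) over the 12 libraries, among genes averaging 1 TPM or more. The points share the libraries, their scaling and the time course, and the correlations are a description. For Ptgs2 they were Gsap (r = 0.988), Cybb (r = 0.987), a subunit of the phagocyte NADPH oxidase, and Gas7 (r = 0.986). Mean Cybb TPM was 2.75, 33.6, 98.4 and 150 at 0h, 1h, 12h and 48h. For Alox5ap they were Btg2 (r = 0.987), Oas1a (r = 0.978) and Ifitm3 (r = 0.974), the last of which was listed at 0 on average at 0h and 1h and had means of 2.11 TPM at 12h and 26.6 at 48h. Oas1a and Ifitm3 are interferon-responsive antiviral genes. For Pla2g4a they were Pisd-ps2 (r = 0.962), Klhl2 (r = 0.941) and Mllt11 (r = 0.938). For Lta4h they were Pdp2 (r = 0.977), Snrpc (r = 0.976) and Gnas (r = 0.975), each lower at 48h than at the other time points by its mean. For Ptgs1 the highest values were lower, with Pou2f2 (r = 0.855), Ephx1 (r = 0.850) and Ppp1r15a (r = 0.835). Pou2f2 encodes a B cell transcription factor, and its means were 1.91, 0.233, 0.697 and 1.19 TPM.

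The rest of the pathway was described with a list of 64 other gene symbols, of which 63 were in the table, 47 were above 0 in some library and 33 were tested. At 1h 11 rose and 0 fell (limma), beside 24.1% and 1.41% of all genes, and after median-of-ratios scaling 6 were higher and 3 lower, beside 5.42% and 4.92%. At 12h 14 rose and 2 fell, beside 22.3% and 7.82%, and after that scaling 13 and 3, beside 16.0% and 14.5%. At 48h 13 rose and 7 fell, beside 15.9% and 27.2%, and after that scaling 15 and 5, beside 24.5% and 22.0%. The counts by class that follow are read against the same shares. The 7 became 4 without 0h replicate 2 or without 48h replicate 2, and the 2 at 12h became 1 without 0h replicate 1 or without 12h replicate 2. At 1h 0 also fell at an unadjusted p under 0.05. The median log2 change of the list was 0.54, 0.69 and 0.13, against medians of 0.59, 0.34 and -0.18 over all genes tested, and -0.037, 0.47 and 0.51 after that scaling. Among the genes that rose, Dpep2, Pla2g2d, Alox8 and Tbxas1 averaged 0.043, 0.03, 0.023 and 0.013 TPM at 0h, under the filter of 0.1. They passed it through later libraries, so a rise against 0h at some time point was set by the filter. The leukotriene receptors given below share this limit. No theme is drawn from these counts.

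Upstream, among 16 genes of arachidonate release and reacylation, 10 were tested, and 3 rose and 1 fell at 48h, and 4 were higher after median-of-ratios scaling. The 1 that fell was Lpcat3, named after its values were seen, with -0.51 (adjusted p = 0.0233, limma), and its call was lost after that scaling, with -0.11 (adjusted p = 0.577, limma). Pla2g7, a secreted enzyme that breaks down platelet-activating factor, went from 2.08 to 4.32 TPM at 0h to 29.6 to 39.4 at 12h and 19.7 to 25.1 at 48h, a log2 change of 2.80 ± 0.27 at 48h (SE, adjusted p = 5.69e-06, limma). Pla2g2d, a secreted phospholipase, was at most 0.07 TPM at 0h and 1.03 to 1.93 at 48h, a change of 3.63 ± 0.43 (adjusted p = 3.05e-05, limma). Of the 7 other lipoxygenases and helpers 2 were tested, and none met the rule for naming. Both were called higher at 1h, and 0 of them after median-of-ratios scaling. Cotl1, a partner protein of 5-lipoxygenase named here after its values were seen, had 17.2 to 20.2 TPM at 0h, 46.9 to 81.7 at 12h, where it rose by 1.65 (adjusted p = 5.40e-04, limma), and 10.4 to 15.4 at 48h, where its difference from 0h was -0.52 (adjusted p = 0.123, limma).

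Among 9 other prostanoid synthases, 1 rose and 3 fell of the 6 tested at 48h (1 and 2 after median-of-ratios scaling). Besides the prostaglandin E synthases, Akr1b3, an aldose reductase that can make prostaglandin F, fell by 1.95 ± 0.20 (SE, adjusted p = 1.32e-05, limma), from 7.96 to 12.4 TPM at 0h to 2.32 to 3.13 at 48h. The 1 that rose was Tbxas1, thromboxane synthase, which was below 1 TPM on average and outside the rule for naming, with 0 to 0.04 TPM at 0h and 0.72 to 1.21 at 48h, a change of 3.22 (adjusted p = 2.28e-04, limma). Hpgds, which makes prostaglandin D, was higher at 1h by 2.14 (adjusted p = 0.00250, limma), from 0.05 to 0.16 TPM to 0.60 to 1.03, and lay between 0.03 and 0.17 at 12h and 48h. The 1h call was lost after rescaling without the 20 most abundant genes (adjusted p = 0.0633, limma) or quantile normalization (adjusted p = 0.0735, limma). Hpgds too was outside that rule.

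The list also held 8 genes of the Ltc4s enzyme family and of leukotriene conversion, of which 4 were tested. Dpep2, a dipeptidase that converts leukotriene D to leukotriene E, was at 0 to 0.08 TPM at 0h and 21.0 to 26.4 at 48h, and rose by 7.39 ± 0.33 (SE, adjusted p = 1.65e-08, limma). Cyp4f18, which oxidises leukotriene B, went from 0.25 to 0.59 TPM at 0h to 16.0 to 23.6 at 48h and rose by 5.23 ± 0.27 (adjusted p = 5.64e-08, limma). The other 2 tested fell. Mgst2, a relative of Ltc4s, was at 3.62 to 7.09 TPM at 0h and at most 2.22 at 48h, a change of -1.44 (adjusted p = 0.0107, limma), and Mgst3 changed by -1.98 (adjusted p = 0.0192, limma). After median-of-ratios scaling both were called, with -1.06 (adjusted p = 0.0366, limma) and -1.82 (adjusted p = 0.0337, limma). The Mgst2 call was lost without 0h replicate 2 or 48h replicate 2 (adjusted p = 0.0504 and 0.0512, limma). The Mgst3 call was lost without 0h replicate 1 or 48h replicate 2 (adjusted p = 0.0685 and 0.0838, limma) and with only the 6 libraries compared (adjusted p = 0.0616, limma). Both were named after their values were seen.

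Of 6 symbols listed for eicosanoid breakdown 5 were in the table, and all 5 were tested, with 1 higher and 1 lower at 48h. Hpgd, which inactivates prostaglandins, rose by 3.73 ± 0.30 (SE, adjusted p = 1.46e-06, limma), from 0.19 to 0.32 TPM at 0h to 3.19 to 6.05 at 48h. Zadh2, a prostaglandin reductase, fell by 2.02 ± 0.27 (adjusted p = 7.86e-05, limma). The exporter Abcc1, the only 1 of 3 transport genes tested, rose at 48h by 1.21 ± 0.24 (adjusted p = 0.00152, limma) and had its highest level at 12h, 7.51 to 9.55 TPM. At 1h it was called higher, but not after median-of-ratios scaling.

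Of the 9 prostanoid receptors 3 were tested, and all 3 were higher at 1h and 12h. At 48h 2 of the 3 were called higher, and all 3 after median-of-ratios scaling. After median-of-ratios scaling 2 of them were higher at 1h, as the call of Ptger1, named after its values were seen, was lost, from 1.11 (adjusted p = 0.0286, limma) to 0.49 (adjusted p = 0.281, limma). Ptgir, the prostacyclin receptor, was at 0.63 to 1.06 TPM at 0h, 10.2 to 11.1 at 1h, 5.38 to 7.90 at 12h and 1.41 to 3.21 at 48h, with log2 changes of 3.64 at 1h (adjusted p = 1.59e-05, limma) and 1.36 ± 0.29 at 48h (SE, adjusted p = 0.00238, limma). Ptger2, a prostaglandin E receptor, rose from 0.20 to 0.45 TPM to 2.28 to 3.02 at 1h and was at 1.97 to 3.13 at 48h, a change of 2.50 ± 0.32 (adjusted p = 6.27e-05, limma). Both leukotriene receptors tested, Ltb4r1 and Cysltr1, were higher at 48h and not called at 1h or 12h. Their time point means up to 12h were at most 0.077 and 0.080 TPM, under the filter of 0.1. They passed it only through their 48h libraries, so their shared direction at 48h was set by the filter. Ltb4r1, the high-affinity receptor of leukotriene B, was at most 0.09 TPM up to 12h and 0.62 to 1.62 at 48h, a change of 3.10 ± 0.43 (adjusted p = 1.09e-04, limma). The other was Cysltr1, a cysteinyl leukotriene receptor outside the rule for naming, with 0.44 to 1.06 TPM at 48h and a change of 2.92 (adjusted p = 2.67e-04, limma).

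PCHi-C addressed which fragments were in contact with the promoters of the members at each time point. A contact was counted when the bait fragment held an annotated transcription start site of the gene, and each time point had 1 merged list, so these counts have no replicate error and no test. The lists held 138769, 137836, 131598 and 144072 interactions at 0h, 1h, 12h and 48h. Over 18175 baits the median was 4 contacts at each time point, and the median change from 0h to 48h was 0. No bait in the lists held a start site of Alox5. The deposited values were a score of at least 5 at 0h and whole numbers without a named unit later, and were not compared.

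The Pla2g4a promoter had 6, 9, 18 and 40 contacts at 0h, 1h, 12h and 48h. That of Ptgs2 had 4, 6, 16 and 31, on a bait that also holds a start of the antisense gene Ptgs2os. Alox5ap had 6, 12, 14 and 23. From 0h to 48h these promoters gained 34, 27 and 17 contacts, and 0.424%, 0.809% and 2.39% of all baits gained at least as many. Lta4h had 11, 5, 4 and 16 contacts, a gain of 5 that 15.0% of baits reached. Ltc4s had 32, 21, 24 and 16 contacts, on a bait shared with starts of Mgat4b and Gm26542, and 2.49% of baits had a change as low as its -16. Ptgs1 had 1, 1, 1 and 3 contacts, and Ptges 1, 5, 3 and 3. Of the members with a bait, the 3 called higher in RNA at 48h had the largest gains in contacts. Ptgs2 and Pla2g4a are neighbours with 8 contacted fragments in common at 48h, so their gains are not separate cases. Ltc4s and Ptges were not tested in RNA, and Lta4h, called lower at 48h, also gained contacts. A link between contacts and RNA was not tested. With a 0h score of at least 10, 1 contact of Pla2g4a and none of Ptgs2 or Alox5ap remained at 0h. This cutoff could be set on the 0h list alone, so it can only enlarge the gains and is no check of them.

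**Figure D4:**
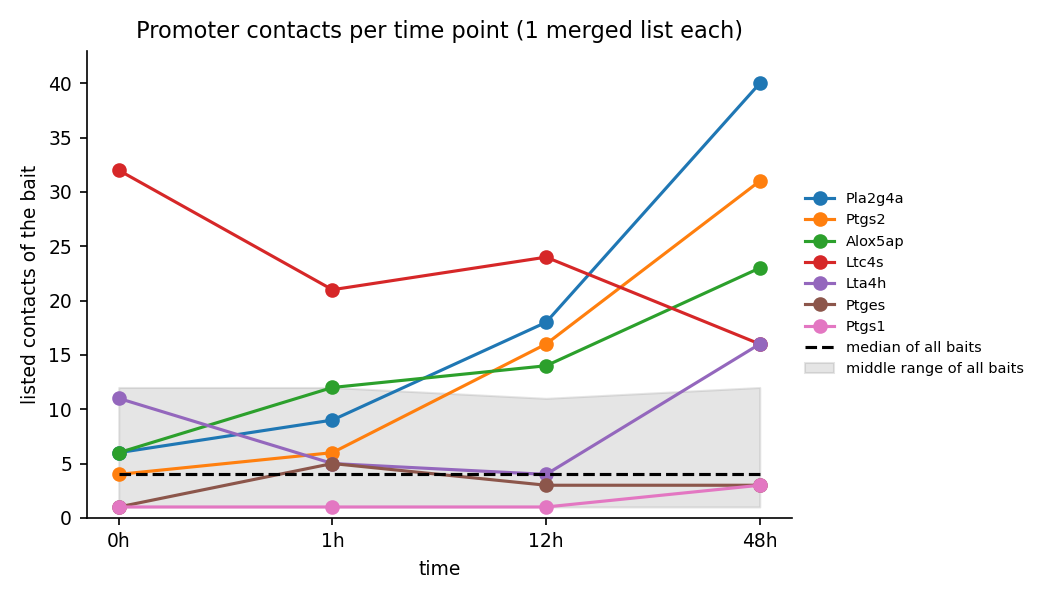
Number of listed contacts of the bait that holds each promoter at 0h, 1h, 12h and 48h, 1 merged list per time point. The dashed line is the median (4) and the grey band the lower to upper quartile of 18175 baits. Pla2g4a, Ptgs2 and Alox5ap ended at 40, 31 and 23, and Ltc4s went from 32 to 16.

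Few of the contacts were present throughout. Of 47 fragments that the Pla2g4a promoter contacted in any list, 3 were in all 4 lists and 25 in the 48h list alone. Of 36 fragments of Ptgs2, 0 were in all 4 lists and 16 in the 48h list alone, although all 4 contacts of 0h were again listed at 48h. Of 32 fragments of Alox5ap, 4 were in all lists and 13 in the 48h list alone. All 23 contacts of Alox5ap at 48h lay on the lower-coordinate side of its promoter, at a median distance of 228 kb, and 7 of them were with another bait. For Ltc4s, 9 of 41 fragments were in all lists and 8 in the 0h list alone.

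Ptgs2 and Pla2g4a are neighbours on chromosome 1. Their 5′ ends are 139 kb apart on opposite strands, and 3 genes start between them (Gm19136, Gm44329 and Ptgs2os). The bait fragments of both promoters were not listed as a pair at 0h and were listed as a pair at 1h, 12h and 48h. Of the Ptgs2 contacts, 4 of 4 at 0h, 5 of 6 at 1h, 16 of 16 at 12h and 23 of 31 at 48h overlapped the Pla2g4a gene. Of the Pla2g4a contacts, 3 of 6, 5 of 9, 11 of 18 and 30 of 40 started beyond the start of Ptgs2. The number of fragments in contact with both promoters was 1, 1, 3 and 8.

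**Figure D5:**
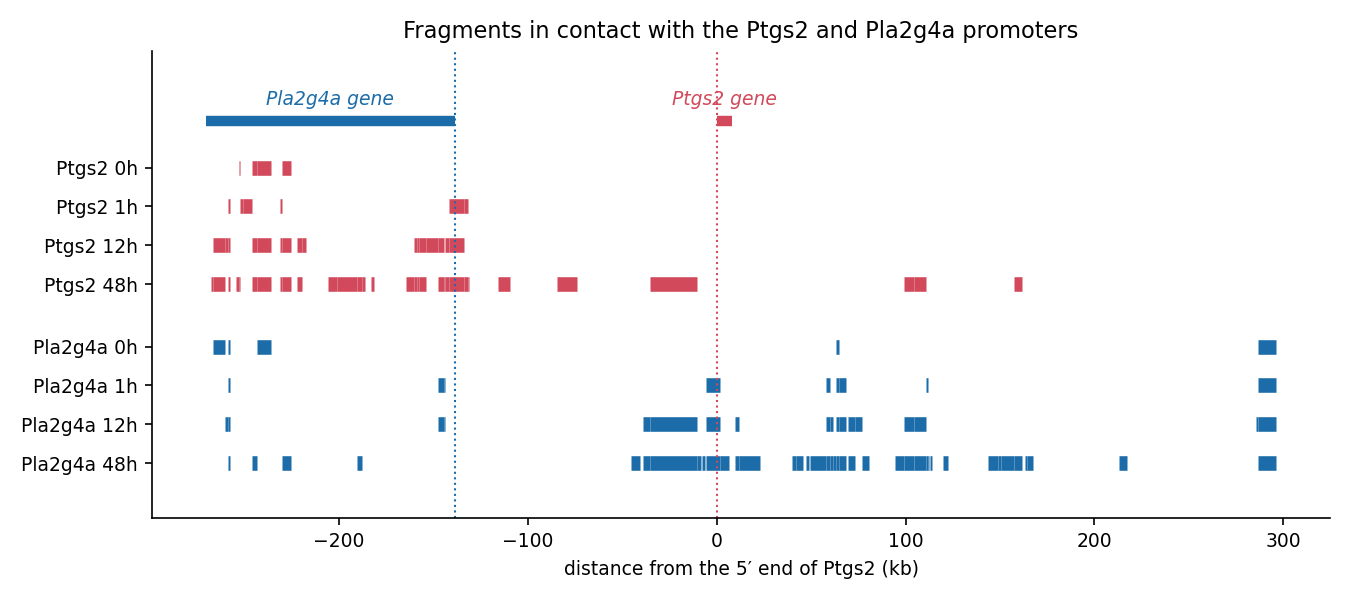
Fragments in contact with the Ptgs2 promoter (red) and the Pla2g4a promoter (blue) at each time point, by distance from the 5′ end of Ptgs2 in kb; upper bars are the genes and dotted lines their 5′ ends. Contacts of Ptgs2 lay mostly over Pla2g4a (23 of 31 at 48h), and 30 of 40 of those of Pla2g4a lay beyond the start of Ptgs2.

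Beyond Ptgs2 lies Ptgs2os2 (chromosome 1, 150159043 to 150164948, minus strand), a long noncoding RNA gene that starts 64.9 kb from the start of Ptgs2. It was chosen for description after its values were seen. The Pla2g4a promoter contacted 2, 3, 4 and 6 fragments that overlap it at 0h, 1h, 12h and 48h, and the Ptgs2 promoter 0 at each time point. Its TPM was 0 in all 0h libraries, 0.26 to 0.35 at 1h, 1.43 to 1.66 at 12h and 1.58 to 1.69 at 48h. Ptgs2os, whose start shares the Ptgs2 bait, was at most 0.19 TPM in any library.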

How the data were processed

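RNA-seq of 12 libraries and PCHi-C lists of 4 time points were used, and Hi-C files were not used here. Per the labels, reads were trimmed with Trim Galore 0.6.2 and mapped with HISAT2 2.1.0, and RSEM was named among the tools. The authors deposited TPM per gene (mm10, Ensembl identifiers). Positions and start sites were from GENCODE M21 (GRCm38). For PCHi-C the authors merged 2 replicates and deposited a score per interaction at 0h. The deposited whole numbers of 1h, 12h and 48h have no stated unit and were not used.

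Log2(TPM + 0.1) of 16415 genes (mean TPM of at least 0.1) was fitted with limma 3.58.1 in R 4.3.3 (lmFit on all 12 libraries and 4 time points, eBayes with trend, Benjamini-Hochberg adjustment), other steps with Python 3.11.15. In simulated data for 48h versus 0h over 16415 genes with independent normal noise, 200 genes averaging at least 1 TPM were changed. Of those changed by 1, 2 and 3 on the log2 scale, 29.9%, 79.1% and 95.5% were called in the right direction. The real comparison called 2611 genes higher and 4466 lower, so these shares do not give the power of the real fit. The members and lists were chosen with earlier results of these data known. The named genes were the members, up to 2 genes per pathway class called at 48h with a time point mean of at least 1 TPM and the largest changes, and the 3 genes most correlated with each tested member. Where a symbol had 2 rows (Dpep2), the row with the higher mean was used. Alternatives varied pseudocount, filter, scaling, trend, libraries, block, thresholds and contact rules.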

Additional observations from a re-analysis of the deposited data

Results flagged for a closer look

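In 3 members the change against 0h differed between successive time points by the test of the step itself (limma, all 12 libraries). Alox5ap was higher at 12h than at 1h by 2.98 on the log2 scale (adjusted p = 1.07e-04, limma) and higher at 48h than at 12h by 1.21 (adjusted p = 0.0147, limma). Ptgs2 was higher at 12h than at 1h by 1.75 (adjusted p = 0.00180, limma). Lta4h changed by -1.89 from 12h to 48h (adjusted p = 5.87e-04, limma). Of all genes tested, 6.98% were higher from 1h to 12h, and 4.10% were higher and 31.7% lower from 12h to 48h. All 3 libraries of the later time point lay beyond all 3 of the earlier one in each of these steps. As the steps were picked by p-values from the same libraries, that separation adds no evidence. The 12h to 48h call of Alox5ap was lost without 12h replicate 2, without 48h replicate 3 and with only the 6 libraries compared. Groups of 3 libraries were not examined for outlying libraries.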

How the results depend on the processing

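TPM keep no depth, and their level depends on how much of a library the ribosomal genes took. Of the choices varied, median-of-ratios scaling altered the most member changes. Of 550 values of member changes over 22 alternatives, 512 kept their direction and side of the threshold, 9 lost the call, 11 gained it and 18 turned direction. The cause was not tested. The pseudocount, filter and trend changed no member call.

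Members called higher at 1h fell from 2 to 1 after median-of-ratios scaling, rescaling without the 20 most abundant genes, quantile normalization or a log2 change beyond 2, and those lower rose from 1 to 2 after median-of-ratios scaling. Lower calls at 12h rose from 0 to 1 after median-of-ratios scaling, quantile normalization or with only the 6 libraries compared. From 12h to 48h, the 1 higher call became 3 after median-of-ratios scaling, 2 after quantile normalization and 0 with only the 6 libraries. With a log2 change beyond 2, 0 members were lower at 48h, 1 was higher from 1h to 12h, and 0 were higher and 0 lower from 12h to 48h.

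Pathway genes higher at 1h numbered 6, 5 and 4 instead of 11 after median-of-ratios scaling, rescaling without the 20 genes and quantile normalization, and 5 with a log2 change beyond 2, and those lower 3, 1 and 1 instead of 0 after these scalings. With a log2 change beyond 2, 8 were higher and 0 lower at 12h, and 2 lower at 48h. Lower calls at 12h numbered 1 with a fold change beyond 2 or with the 6 libraries, and 8 were higher at 48h with a mean TPM of at least 1, where fewer genes were tested.

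Changes that were not called turned direction as follows. Pla2g4a from 1h to 12h was 0.23, 0.18 and 0.19 and from 12h to 48h 0.48, 0.30 and 0.40 after median-of-ratios scaling, rescaling without the 20 genes and quantile normalization. Lta4h at 12h was -0.20, -0.084 and -0.17 after the same, and at 1h -0.11 and -0.036 after the first and last. Ptgs1 at 48h was 0.017 after median-of-ratios scaling.

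Leaving out 1 library at a time gave 0 to 1 members lower at 12h, 0 to 2 higher from 12h to 48h, 1 to 3 pathway genes lower at 12h and 4 to 8 lower at 48h. Pla2g4a from 1h to 12h ranged from -0.33 to 0.16, Lta4h at 12h from -0.083 to 0.40, Ptgs1 at 48h from -0.73 to 0.13 and Ptgs2 from 12h to 48h from -0.054 to 0.51.

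Same-numbered replicates of different time points deviated together with correlations from -0.012 to 0.26 (7 of 18 pairs over 0.1), so the numbers were not taken as pairs. The best match had the same number in 7, 3 and 12 of 12 comparisons for replicates 1, 2 and 3, and 2, 0 and 5 of the 6 pairs of each number were over 0.1, so the replicate 3 libraries deviated together across time points. A replicate block changed no member call, with 3 higher and 1 lower at 48h, and 12 pathway genes higher at 48h.

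With a 0h score of at least 10, contacts at 0h numbered 1 for Pla2g4a, 1 for Lta4h, 3 for Ltc4s and 0 each for Alox5ap, Ptgs1, Ptgs2 and Ptges. The later lists have no named score and were left uncut, so the changes over time were not checked by this cutoff. Baits that hold the 5′ end of the gene gave the same counts. Counting a region within 10 kb as shared, the 0h contacts again listed at 1h were 4 instead of 0 for Ptgs2.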
